A study of Homo sapiens with 9 samples.

Results

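Messenger RNA of 10 genes was followed in HepG2 cells given the thyroid hormone T3 or its analogue GC-1. These genes act in the traffic of sterols, phospholipid and bile acids through the liver, or regulate it. The genes were ABCB4, ABCB11, SLC10A1, ABCA1, ABCG1, SCARB1, LCAT, NR0B2, NR1H3 and NR1H4, and every probe set whose array annotation gives a single symbol, 1 of these, was taken. This gave 16 of the 22215 non-control probe sets, for 9 of the 10 genes. NR1H4 was not analysed here, as no probe set was annotated to it alone, and 1 probe set annotated to ABCB4 together with ABCB1 was left out by the same rule.

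HepG2 is an established human line from a liver tumour, labelled as hepatoma cells, so all arrays come from a single line. Cells of all groups were kept in medium with serum depleted of thyroid hormone and received vehicle, 10 nM T3 or 10 nM GC-1 for 24 h. T3 is triiodothyronine, and GC-1 is a synthetic agonist of the thyroid hormone receptors that favours the beta form. Its rings carry methyl and isopropyl groups in place of the iodines of T3. Each group had 3 Affymetrix arrays, and values are RMA signals on a log2 scale, so that a difference of 1 is a doubling. The series asks how alike the gene responses to T3 and GC-1 are.

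The liver rids the body of cholesterol by secreting it into bile with phospholipid and bile acids. Other pathways hand cholesterol to high-density lipoprotein (HDL) and take it back from that particle. Bile acids feed back on this traffic through the nuclear receptor FXR, the product of NR1H4, which induces the repressor SHP, the product of NR0B2. Oxysterols act through the liver X receptors (LXR), of which NR1H3 encodes the alpha form. Thyroid hormone is known to lower plasma cholesterol and to act on several of these steps in the liver.

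Array medians lay between 7.02 and 7.06 log2 units, no 2 arrays held identical values, and pairs of arrays correlated at 0.995 to 0.999 over all probe sets. T3 replicates 1 and 2 had wider interquartile ranges, 2.99 and 2.97, than the other 7 arrays, at 2.83 to 2.88. Whether the 3 arrays of a group hold separate cultures is not in the labels, and the p-values rest on a spread that may be technical. Hepatocyte markers were bright, with ALB, TTR, SERPINA1, APOB, TF, AHSG and FGA all between the 97.9th and the 99.99th percentile of probe set means. Of these 7, APOB (0.21) and FGA (0.86) were higher with T3 and FGA (0.75) with GC-1, and their part in the results was not tested. Of 5 cholangiocyte markers, KRT19 was lower with T3 (log2 -0.25, limma adjusted p = 0.0425) and with GC-1 (-0.28, adjusted p = 0.0410). The mean level of these 5 was 9.03 to 9.08 on vehicle, 8.88 to 8.99 on T3 and 8.92 to 8.96 on GC-1 arrays. On vehicle KRT7 and CFTR stood at 5.82 and 5.96, and KRT19, SOX9 and EPCAM at 10.49, 11.19 and 11.84. The part of these markers in the results was not tested. All arrays come from a single line, and bulk samples cannot show whether fewer of its cells expressed a marker or each held less of its RNA. None of the 4 measured leukocyte and macrophage, 4 endothelial, 5 stellate cell and fibroblast or 3 intestinal markers passed in either ligand comparison.

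T3 raised ABCB4, NR0B2 and 1 of 3 SCARB1 probe sets and lowered 1 of 2 LCAT probe sets. GC-1 raised ABCB4 and NR0B2. ABCB4, the canalicular phospholipid exporter, had the largest change of the 16 probe sets with both ligands, 1.58-fold with T3 and 1.45-fold with GC-1. No probe set of ABCB11, SLC10A1, ABCA1, ABCG1 or NR1H3 passed with either ligand. A probe set passed when limma's two-sided test gave a p under 0.05 after Benjamini-Hochberg adjustment over all 22215 probe sets. By that rule 4 of the 16 probe sets passed with T3, 3 higher and 1 lower, where 5.50% of all probe sets passed (4.00% higher, 1.50% lower). With GC-1 2 of 16 passed, both higher, where 2.80% of all passed (1.81% higher, 0.986% lower). The balance over all probe sets depends on the fit with both ligands. For T3 it went from 888 higher and 334 lower here to 932 and 1152 with the arrays' interquartile range as a covariate. For GC-1 it went from 403 higher and 219 lower here to 602 and 670 without T3 replicate 3. At an unadjusted p under 0.05 there were 6 of 16 with T3 and 4 of 16 with GC-1, where 21.1% and 15.9% of all probe sets had one. The genes were picked with earlier results of these data known, so these counts describe the 16 probe sets and give no independent support.

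**Figure D1:**
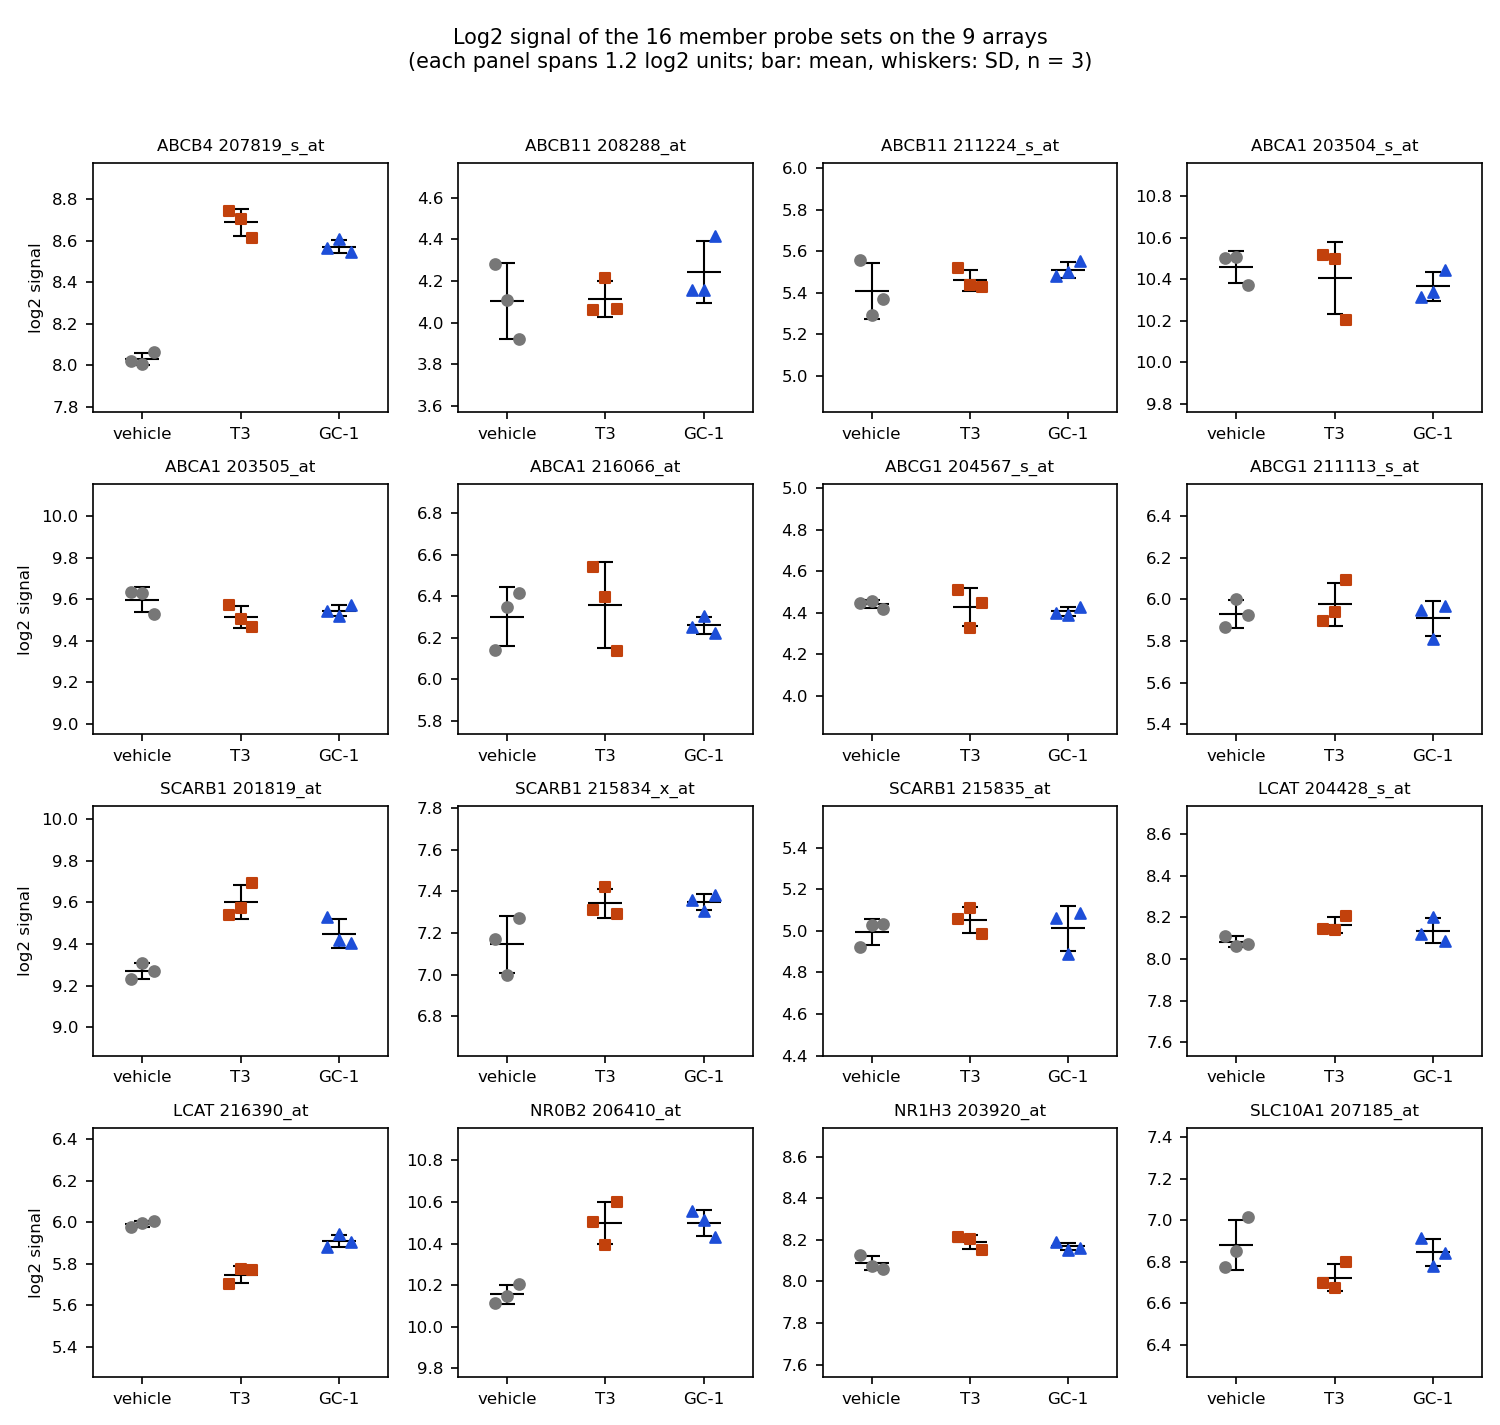
Log2 signal (vertical axis) of each of the 16 probe sets on the 9 arrays, by group (horizontal axis). Points are arrays, bars are group means and whiskers are SD (n = 3), and each panel spans 1.2 log2 units. The ligand arrays of ABCB4 and NR0B2 lie apart from the vehicle arrays, while in ABCA1, ABCG1 and ABCB11 the groups overlap.

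Among the genes of bile secretion, ABCB4 encodes the floppase MDR3, which moves phosphatidylcholine into the outer leaflet of the canalicular membrane so that bile salts can carry it off. Its probe set 207819_s_at read 8.02, 8.01 and 8.06 log2 units on the vehicle arrays, 8.74, 8.70 and 8.62 on the T3 arrays, and 8.56, 8.61 and 8.54 on the GC-1 arrays. All 6 ligand arrays stood above all vehicle arrays, and the 3 T3 arrays stood above the 3 GC-1 arrays. The difference from vehicle was 0.66 ± 0.05 (SE, n = 3 per group; 95% interval 0.55 to 0.77; limma adjusted p = 2.4e-05) with T3. With GC-1 it was 0.54 ± 0.05 (interval 0.43 to 0.65; adjusted p = 0.000152). ABCB4 ranked 84th from the top among the 22215 differences with T3 and 88th with GC-1. It passed under all 17 alternative settings in both comparisons, with 0.58 to 0.69 for T3 and 0.52 to 0.57 for GC-1.

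ABCB11, the bile salt export pump BSEP, sits beside ABCB4 in the same membrane and belongs to the same transporter family. Both of its probe sets were dim, with overall means of 4.15 and 5.46, at the 1.65th and the 17.2th percentile of probe sets. The brighter, 211224_s_at, read 5.56, 5.30 and 5.37 on vehicle, 5.52, 5.44 and 5.43 on T3, and 5.48, 5.50 and 5.55 on GC-1 arrays. The 3 groups overlapped, and the lowest and the highest value both belonged to vehicle arrays. Differences were 0.05 (95% interval -0.09 to 0.20) with T3 and 0.10 (-0.04 to 0.25) with GC-1. The dimmer, 208288_at, differed by 0.01 (-0.20 to 0.22) and 0.14 (-0.07 to 0.35). RMA tends to compress differences between dim probe sets.

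SLC10A1 encodes NTCP, the sodium-coupled carrier that brings bile acids back from the blood into hepatocytes. Its probe set 207185_at read 6.78, 6.85 and 7.02 on vehicle, 6.70, 6.67 and 6.80 on T3, and 6.91, 6.78 and 6.84 on GC-1 arrays. The groups overlapped, and T3 replicates 1 and 2 were the lowest of the 9 arrays. The T3 difference was -0.16 ± 0.07 (interval -0.31 to -0.01), with an unadjusted p of 0.0402 and a limma adjusted p of 0.212. It was -0.08 with T3 replicates 1 and 2 left out together, a fit whose single T3 array takes its spread from the other groups. With GC-1 the difference was -0.04 (interval -0.19 to 0.11).

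In the HDL pathway, SCARB1 encodes SR-BI, the receptor that takes cholesteryl ester from HDL into the cell. Its brightest probe set, 201819_at, read 9.23, 9.31 and 9.27 on vehicle, 9.54, 9.57 and 9.69 on T3, and 9.53, 9.42 and 9.40 on GC-1 arrays. All ligand arrays stood above all vehicle arrays, and all T3 arrays above all GC-1 arrays. T3 raised it 1.26-fold (log2 0.33 ± 0.06, interval 0.20 to 0.46, limma adjusted p = 0.00657). With GC-1 it stood 0.18 ± 0.06 above vehicle (interval 0.05 to 0.31; adjusted p = 0.148), which passed only with the trend and robust options of eBayes among the 17 alternatives (adjusted p = 0.0452; range 0.0452 to 0.396).

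The other 2 probe sets of SCARB1 did not pass. For 215834_x_at, of a type that can bind several transcripts, the values were 7.17, 6.998 and 7.27 on vehicle, 7.31, 7.42 and 7.29 on T3, and 7.36, 7.31 and 7.38 on GC-1 arrays. Here too no ligand array fell to the vehicle range, with differences of 0.20 (limma adjusted p = 0.138) and 0.20 (adjusted p = 0.176). For 215835_at, with an overall mean of 5.02, the differences were 0.06 and 0.02.

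LCAT encodes the plasma enzyme that esterifies cholesterol on HDL, and its 2 probe sets went opposite ways. The brighter, 204428_s_at, read 8.11, 8.06 and 8.07 on vehicle, 8.14, 8.14 and 8.21 on T3, and 8.12, 8.20 and 8.09 on GC-1 arrays, with differences of 0.08 (interval -0.03 to 0.19; limma adjusted p = 0.394) and 0.05 (interval -0.06 to 0.16; adjusted p = 0.682). The T3 arrays lay just above the vehicle arrays, while the GC-1 arrays overlapped them. The dimmer, 216390_at, read 5.98, 5.995 and 6.01 on vehicle, 5.70, 5.77 and 5.77 on T3, and 5.88, 5.94 and 5.91 on GC-1 arrays. The 3 groups did not overlap here, with T3 lowest. T3 lowered this probe set by -0.24 ± 0.05 on the log2 scale (interval -0.35 to -0.14; adjusted p = 0.0112), and with GC-1 it was -0.08 (interval -0.19 to 0.02; adjusted p = 0.433). The T3 call was lost without vehicle replicate 3 (adjusted p = 0.0534), with the arrays' interquartile range as a covariate (0.0537) and without T3 replicates 1 and 2 (0.0584). No direction can be given for LCAT as a gene.

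ABCA1 and ABCG1 are the cholesterol exporters that load the apolipoprotein of HDL and the formed particle, and both are known targets of LXR. The brightest ABCA1 probe set, 203504_s_at, read 10.50, 10.51 and 10.37 on vehicle, 10.51, 10.50 and 10.21 on T3, and 10.31, 10.34 and 10.44 on GC-1 arrays. T3 replicate 3 was the lowest of the 9 arrays, while T3 replicates 1 and 2 lay with the higher vehicle arrays. The differences were -0.05 (interval -0.23 to 0.13; limma adjusted p = 0.762) with T3 and -0.09 (interval -0.27 to 0.09; adjusted p = 0.647) with GC-1. With the interquartile range as a covariate, in which T3 replicates 1 and 2 stand apart, the T3 difference was -0.28 and passed (adjusted p = 0.0420). Leaving out T3 replicates 1 and 2 together gave -0.25 (adjusted p = 0.0905).

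T3 replicate 3 was the lowest T3 array in the other ABCA1 probe sets as well, at 9.47 against 9.57 and 9.51 in 203505_at and at 6.13 against 6.54 and 6.40 in 216066_at. Differences of 203505_at were -0.08 with T3 and -0.05 with GC-1. In 216066_at they were 0.06 and -0.04, and the former turned to -0.18 with the covariate and to -0.17 without T3 replicates 1 and 2.

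ABCG1 had its brighter probe set, 211113_s_at, at 5.87, 6.0 and 5.92 on vehicle, 5.90, 5.94 and 6.10 on T3, and 5.95, 5.81 and 5.97 on GC-1 arrays. The groups overlapped, with differences of 0.05 (interval -0.10 to 0.20) and -0.02 (interval -0.17 to 0.13). Its dim probe set 204567_s_at, at the 3.32th percentile, differed by -0.01 and -0.03.

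Among the regulators, NR0B2 encodes SHP, an orphan receptor without a DNA-binding domain that represses other nuclear receptors and with them bile acid synthesis. Its probe set 206410_at read 10.12, 10.15 and 10.21 on vehicle, 10.50, 10.39 and 10.60 on T3, and 10.56, 10.51 and 10.43 on GC-1 arrays. All ligand arrays stood above all vehicle arrays, and the ranges of T3 and GC-1 overlapped. NR0B2 rose 1.27-fold with each ligand, by 0.34 ± 0.06 with T3 (interval 0.21 to 0.48; limma adjusted p = 0.00797) and by 0.34 ± 0.06 with GC-1 (interval 0.21 to 0.48; adjusted p = 0.0133). The T3 call held under all 17 alternatives. The GC-1 call was lost when vehicle replicate 1 or 2 was left out (0.32 and 0.34, adjusted p = 0.0703 and 0.0620) and when GC-1 replicate 1 or 2 was (0.32 and 0.34, adjusted p = 0.0682 and 0.0648). Of the 16 probe sets only ABCB4 passed with GC-1 in those 4 fits.

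NR1H3, LXR alpha, senses oxysterols and drives cholesterol export. Its probe set 203920_at read 8.13, 8.08 and 8.06 on vehicle, 8.22, 8.20 and 8.15 on T3, and 8.19, 8.15 and 8.16 on GC-1 arrays. The ligand arrays all lay above the vehicle arrays, by margins that did not pass. Differences were 0.10 ± 0.05 (interval -0.0007 to 0.20; limma adjusted p = 0.241) with T3 and 0.08 ± 0.05 (interval -0.02 to 0.18; adjusted p = 0.451) with GC-1.

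The 3 T3 and the 3 vehicle arrays did not overlap in 7 of the 16 probe sets, with T3 above in 6 and below in 1, where 24.9% of all probe sets did not overlap (12.5% above, 12.4% below). GC-1 and vehicle arrays did not overlap in 6, with GC-1 above in 5 and below in 1, where 26.5% of all did not (10.8% above, 15.6% below). The median difference of the 16 was 0.05 with T3 and 0.04 with GC-1, beside -0.02 and -0.004 over all 22215. Both comparisons use the same vehicle arrays.

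**Figure D2:**
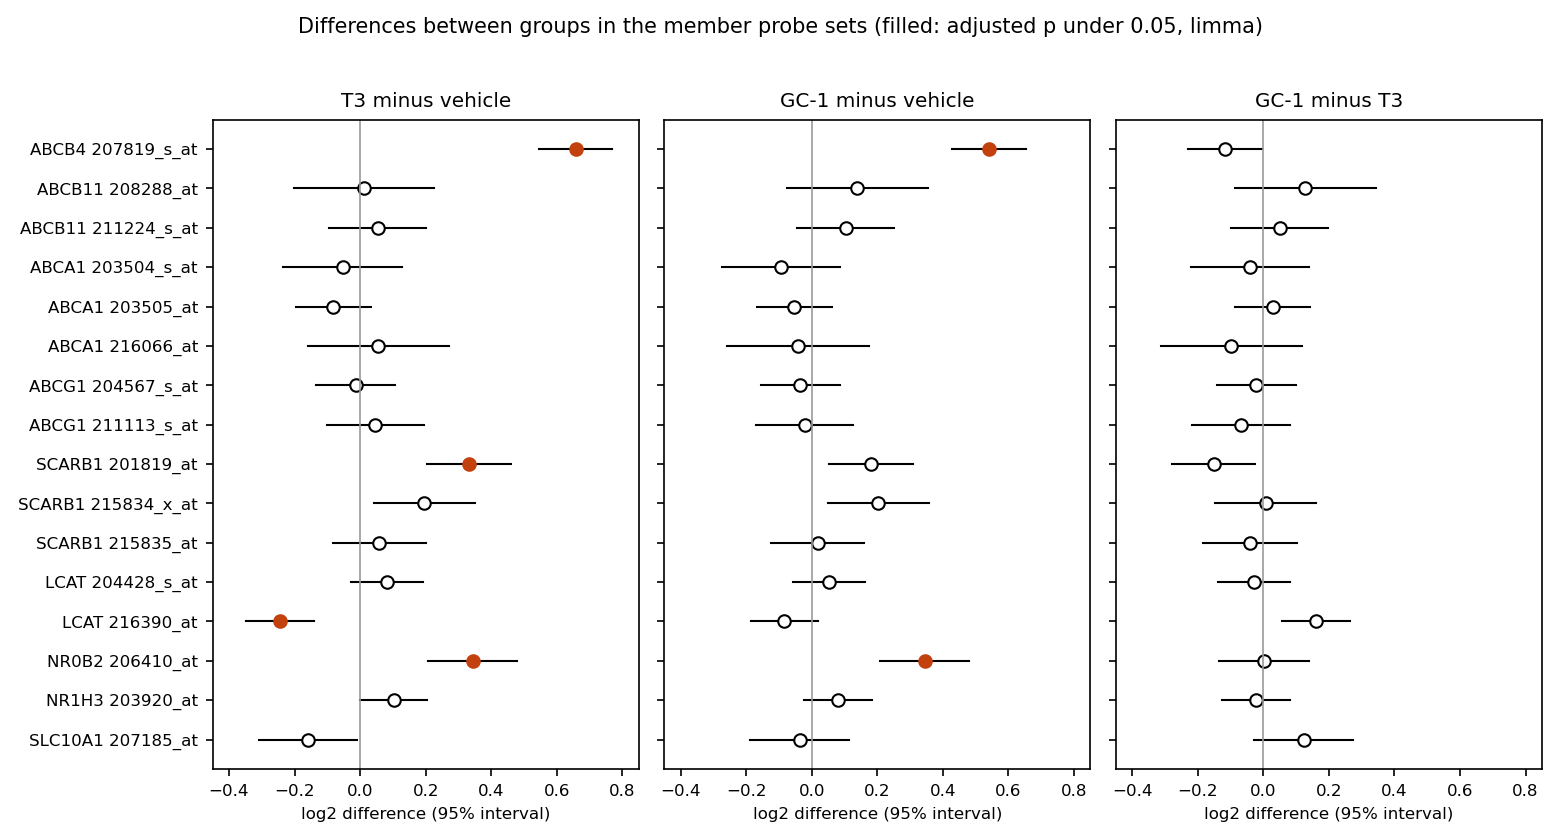
Log2 differences between groups (horizontal axis) for the 16 probe sets (rows), as limma estimates with 95% intervals. Filled points passed at an adjusted p under 0.05. ABCB4 lies farthest to the right against vehicle, at 0.66 and 0.54, and no point is filled for GC-1 minus T3.

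The ligands were then compared directly, at the matched dose of 10 nM and time of 24 h, as the only pair of compounds in the series. None of the 16 probe sets differed between GC-1 and T3 by limma's adjusted p, where 0% of all probe sets did. At an unadjusted p under 0.05 there were 3 of 16, against 14.1% of all, and the trend and robust options called none of the 16. These 3 were LCAT 216390_at (GC-1 minus T3 0.16, interval 0.06 to 0.26, adjusted p = 0.224), SCARB1 201819_at (-0.15, interval -0.28 to -0.02, adjusted p = 0.297) and ABCB4 (-0.12, interval -0.23 to -0.004, adjusted p = 0.341). In each of them no GC-1 array overlapped the T3 arrays, and GC-1 lay between T3 and vehicle. Such separation was seen in these 3 of 16 probe sets, 1 above and 2 below T3, where 18.0% of all probe sets had it (7.90% above, 10.1% below).

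For ABCB4 the order of the levels was therefore vehicle, GC-1 and T3, with GC-1 and T3 not separated after adjustment. The lowest T3 array, replicate 3 at 8.615, lay just above the highest GC-1 array, at 8.606. When the interquartile range was a covariate, ABCB4 differed from vehicle by 0.58 with T3 and 0.57 with GC-1. In NR0B2 the ligands differed by 0.002 (interval -0.13 to 0.14; limma adjusted p = 0.994), so a difference of more than 1.10-fold either way lay outside the 95% interval. The intervals of all 16 probe sets lay within 1.5-fold, and the widest limit, in ABCB11 208288_at, was 1.27-fold. That probe set and others of the 16 are dim, where RMA tends to compress differences, so their intervals may understate a difference between the ligands. With 3 arrays a group, a missed threshold is no proof of like action, and an exact permutation test of 3 against 3 arrays cannot give a p under 0.1.

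Promoter windows of RefSeq (GRCh38.p14) were at hand for 5 of the 10 genes, ABCB11, ABCA1, NR1H3, NR1H4 and SLC10A1, in 8 windows, 4 of them of NR1H3. ABCB4, NR0B2, SCARB1, LCAT and ABCG1 have no entry in the table used. The 250 bases before each start site were searched on both strands for the nuclear receptor core motif AGGTCA, for a direct repeat of it with a spacer of 4 bases and for the extended motif TCAAGGTCA. Both longer motifs contain the first. The core motif was found in 3 of the 8 windows, 1 each of NR1H3, NR1H4 and SLC10A1, and in 12.1% of 35116 windows of that length. Neither longer motif was found in these 8, and they occur in 0.0142% and 0.319% of all windows. The windows of the 2 measured genes with a match are shown with the core motif in capitals, as examples of a match in genes whose probe sets did not pass. The first is chr11:47248050-47248299 on the plus strand, with the match starting 140 bases before the start site, and the second is chr14:69797242-69797491 on the minus strand, with the match starting 149 bases before it.
NR1H3: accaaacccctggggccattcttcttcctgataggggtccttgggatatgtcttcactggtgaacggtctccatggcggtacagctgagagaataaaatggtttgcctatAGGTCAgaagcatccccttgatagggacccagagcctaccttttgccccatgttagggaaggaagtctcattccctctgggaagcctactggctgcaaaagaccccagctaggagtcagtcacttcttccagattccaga
SLC10A1: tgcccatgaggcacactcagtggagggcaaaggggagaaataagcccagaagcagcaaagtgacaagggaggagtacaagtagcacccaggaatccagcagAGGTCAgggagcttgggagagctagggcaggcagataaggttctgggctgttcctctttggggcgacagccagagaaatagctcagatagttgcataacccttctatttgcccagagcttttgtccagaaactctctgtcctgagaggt
A match of letters is a description and shows no binding.

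Other genes of the same pathways were examined in 5 lists of 70 genes, of which 52 were measured, each by its brightest probe set. With T3 4 of the 52 rose and 0 fell, where 6.22% of all genes passed (4.51% higher, 1.71% lower). With GC-1 2 rose and 1 fell, where 3.26% passed (2.10% higher, 1.16% lower). Their median difference was 0.08 with T3 and 0.05 with GC-1, beside -0.02 and -0.005 over 11963 genes. At an unadjusted limma p under 0.05 there were 23 of 52 with T3 and 15 of 52 with GC-1. Of all genes 22.4% and 17.0% had one. The lists were chosen with earlier results of these data known, so these counts give no independent support.

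Of 10 measured transporters of the bile canalicular and sinusoidal membranes, 1 rose with each ligand and none fell (median 0.16 with T3, 0.07 with GC-1). It was ABCG5, a subunit of the sterol pump that secretes cholesterol into bile, while its partner ABCG8 was not analysed here. ABCG5 read 8.86, 8.85 and 8.83 on vehicle, 9.22, 9.15 and 9.20 on T3, and 9.01, 9.12 and 9.05 on GC-1 arrays. The 3 groups did not overlap, with T3 highest and vehicle lowest. The differences from vehicle were 0.35 ± 0.05 (limma adjusted p = 0.00206) and 0.22 ± 0.05 (adjusted p = 0.0427), and GC-1 minus T3 was -0.13 (adjusted p = 0.297). The GC-1 call lies near the threshold, and alternative fits are not given here for single list genes. SLCO2B1, a carrier of organic anions, stood at 0.20 and 0.07, the drug pump ABCB1 at 0.19 and 0.19, and ABCC2, which exports conjugates into bile, at 0.18 and 0.08, none of them past the threshold.

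Of 11 measured genes of bile acid synthesis and conjugation, 2 rose with T3, none fell, and none passed with GC-1 (median 0.02 with T3, 0.12 with GC-1). BAAT, which joins bile acids to glycine or taurine, read 9.42, 9.56 and 9.56 on vehicle, 9.86, 9.76 and 9.92 on T3, and 9.84, 9.67 and 9.68 on GC-1 arrays. Its differences were 0.33 ± 0.07 (limma adjusted p = 0.0153) and 0.21 ± 0.07 (adjusted p = 0.138). ACOX2, the peroxisomal oxidase of bile acid side chains, stood at 0.31 (adjusted p = 0.00753) and 0.22 (adjusted p = 0.0692). GC-1 minus T3 was -0.12 in BAAT and -0.09 in ACOX2 (adjusted p = 0.450 and 0.471), so the passing of T3 alone is not a shown difference between the ligands. CYP7A1, the rate-limiting enzyme of bile acid synthesis and a known thyroid hormone target in rodents, was dim at 4.21 on vehicle, with differences of 0.00 and 0.18 (adjusted p = 0.995 and 0.195). CYP27A1, of the other synthesis route, stood at 0.18 and 0.12 without passing.

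Of 15 measured genes of HDL and cellular sterol handling, 1 rose with T3 and none fell, and with GC-1 1 rose and 1 fell (median 0.08 and 0.03). APOE, the ligand of lipoprotein receptors, read 11.30, 11.31 and 11.29 on vehicle, 11.67, 11.62 and 11.85 on T3, and 11.69, 11.58 and 11.51 on GC-1 arrays. All ligand arrays lay above vehicle, with differences of 0.41 ± 0.07 (limma adjusted p = 0.00494) and 0.29 ± 0.07 (adjusted p = 0.0482). Here too the GC-1 call lies near the threshold. Of the other APOE probe sets, 203382_s_at passed with both (0.41 and 0.28), while 212884_x_at passed with T3 (0.34) and not with GC-1 (0.19, adjusted p = 0.0925). SOAT2, which esterifies cholesterol inside liver cells, was lower with GC-1 (-0.25 ± 0.05, adjusted p = 0.0282) and stood at -0.19 with T3 (adjusted p = 0.0581), with GC-1 minus T3 at -0.06 (adjusted p = 0.638). APOA1, the main protein of HDL, stood at 0.11 and 0.04, the lysosomal lipase LIPA at 0.15 and 0.10, and the oxysterol-binding OSBP at 0.16 and 0.16, none past the threshold.

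By brightest probe sets, none of the 9 measured receptors and feedback genes or the 7 measured other LXR targets passed with either ligand. A less bright probe set of VDR, 204255_s_at, passed with T3 (0.27, limma adjusted p = 0.0451), while its other probe sets did not. At an unadjusted p under 0.05 limma gave 3 of 9 and 3 of 7 with T3 and 2 of 9 and 1 of 7 with GC-1, against 22.4% and 17.0% of all genes by their brightest probe set. The receptor PPARA stood at 0.20 with T3 and 0.23 with GC-1, RXRA, the partner of FXR and LXR, at 0.19 and 0.08, the coactivator PPARGC1A at 0.14 and 0.16, and NR5A2, which SHP restrains, at 0.09 and 0.17. FGF19, NR1H2 and HNF4A were not analysed here. Among LXR targets, the desaturase SCD stood at 0.15 and 0.08, the fatty acid synthase FASN at 0.13 and -0.01, the lipid droplet protein PLIN2 at -0.12 and -0.16 and ABCA2, a lipid transporter of late endosomes and lysosomes, at 0.09 and 0.13.

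**Figure D3:**
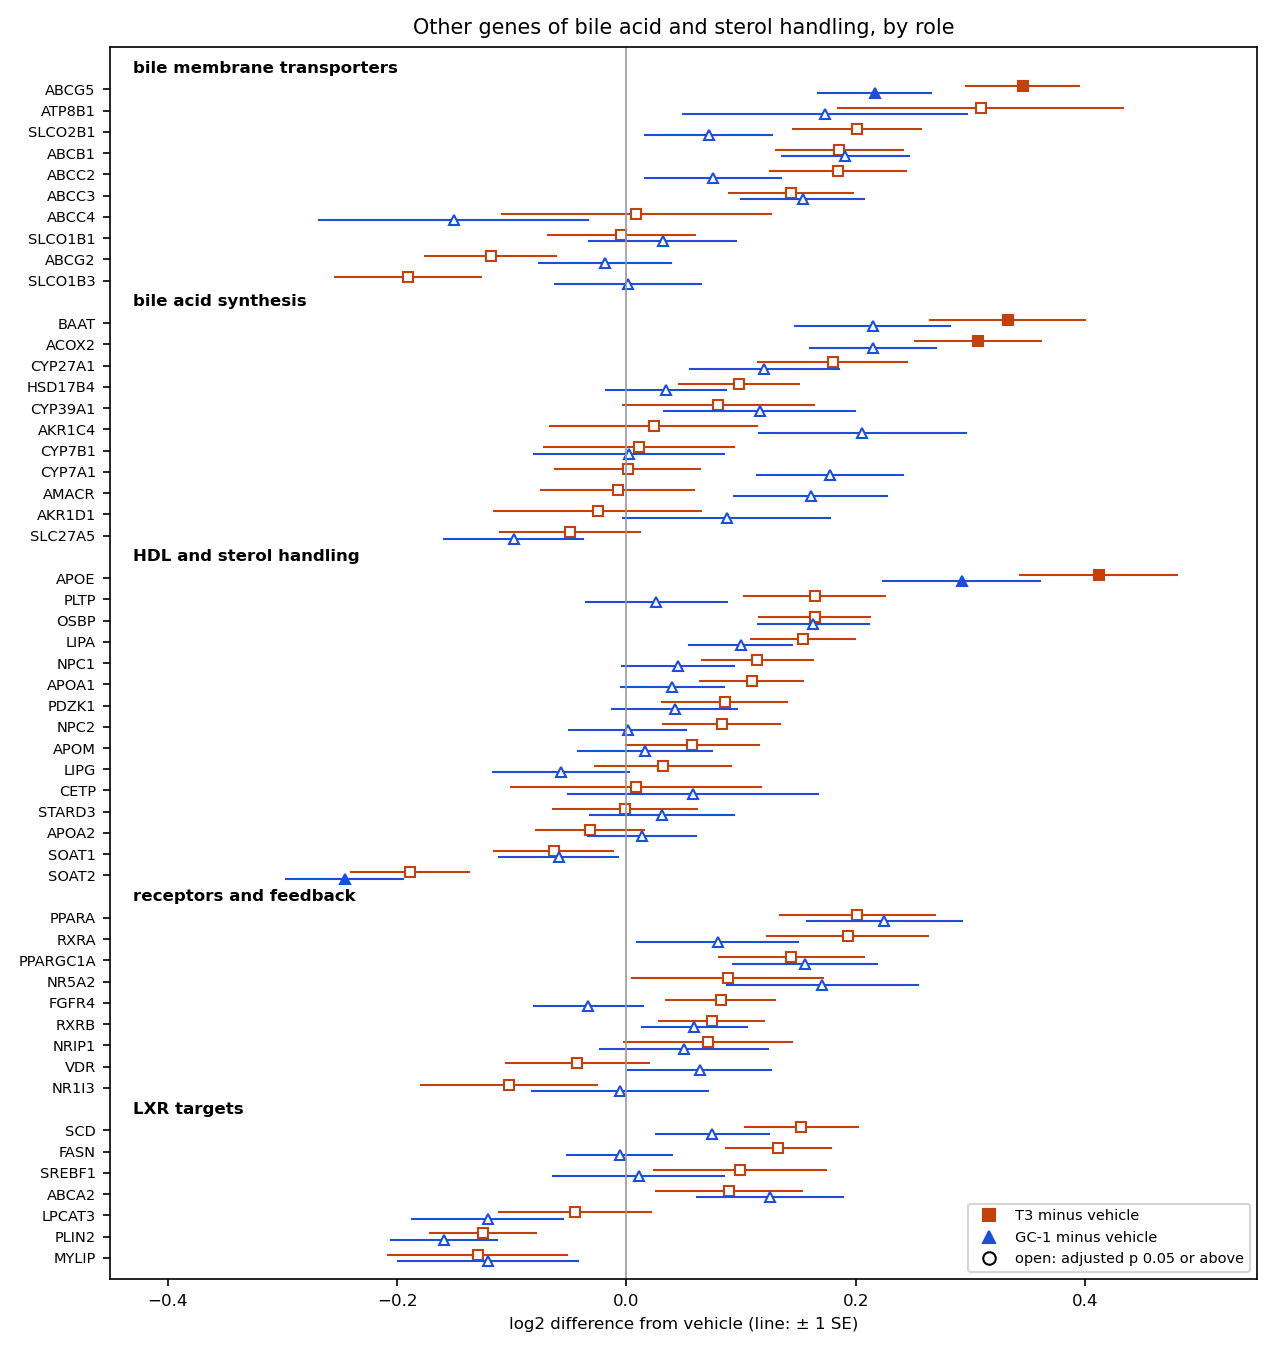
Log2 differences from vehicle (horizontal axis) of 52 other genes of bile acid and sterol handling (rows, by role), squares for T3 and triangles for GC-1, with lines of 1 SE either way. Filled symbols passed at an adjusted p under 0.05: ABCG5 and APOE with both ligands, BAAT and ACOX2 with T3, SOAT2 with GC-1.

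The genes whose signals over the 9 arrays ran most like those of ABCB4 were MMP11, ACSS3, SULT2A1, FGG and ANGPTL8, with Pearson correlations of 0.993, 0.992, 0.992, 0.992 and 0.990. The 9 arrays are 3 groups of 3, so these values are a description of a shared difference between groups. Their differences from vehicle with T3 and GC-1 were 0.93 and 0.75 in MMP11, a secreted protease, 0.63 and 0.56 in ACSS3, a short-chain acyl-CoA synthetase, and 0.62 and 0.51 in SULT2A1, which sulfates steroids and bile acids. FGG, a fibrinogen chain, stood at 0.35 and 0.31, and ANGPTL8, a secreted regulator of lipoprotein lipase, at 1.67 and 1.36. Over the same arrays the brightest probe sets of NR0B2, NR1H3 and SCARB1 correlated with ABCB4 at 0.905, 0.888 and 0.850, and those of ABCA1 and SLC10A1 at -0.248 and -0.554.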

How the data were processed

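Gene expression was measured on 9 Affymetrix arrays of HepG2 cells, 3 each of vehicle, T3 and GC-1, grouped by their titles. The deposited values are log2 signals made by the authors with RMA, per the submitters' processing notes; the version and log base are not given in the sources used here, and the base was inferred from the range of 3.15 to 14.5. The number of arrays limits the precision. Scanner files were not used, so detection of single probe sets was not examined. Of the probe sets, 62 controls were left out. The annotation gave 1 symbol for 19064 of the remaining 22215, several for 1043 and none for 2108.

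All probe sets were fitted with limma 3.58.1 in R 4.3.3 (lmFit of group means over all 9 arrays, eBayes, tested on simulated data), with Benjamini-Hochberg adjustment across the 22215 probe sets of a contrast. Standard errors and 95% intervals come from this fit. Alternatives were quantile normalization, leaving out probe sets with a mean under 6, trend and robust eBayes, array weights, a fit of 2 groups, a replicate block, the interquartile range as covariate and leaving out each array. Leaving out T3 replicates 1 and 2 together was added after seeing the data.

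The 10 genes and the lists were chosen with earlier results of these data known. Named are all 10 genes, up to 4 genes per list with the smallest p, all passing list genes where 5 or fewer passed, CYP7A1, FGF19, ABCG5, ABCG8 and APOA1, and the 5 genes most correlated with ABCB4. Genes named only as not analysed fall outside this rule. It had promoters of the passing genes printed; none was in the table, so windows of other members are shown.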

Additional observations from a re-analysis of the deposited data

How the results depend on the processing

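Among the 16 probe sets, the calls of ABCB4 in both ligand comparisons and of NR0B2 and SCARB1 201819_at with T3 held in all 17 alternatives, and no called difference changed sign. With T3 3 or 4 of these probe sets passed in every alternative. The 4 with the interquartile range as covariate held ABCA1 203504_s_at in place of LCAT 216390_at. Without dim probe sets only 10 of the 16 were fitted, LCAT 216390_at not among them, and 3 passed with T3. With GC-1 the count was 1 to 2 when an array was left out and otherwise 2, or 3 with trend and robust eBayes, and for GC-1 minus T3 it was 0 throughout. Over all 16 probe sets, called or not, the sign changed in 16 of 266 alternative values with T3, 9 of 266 with GC-1 and 26 of 266 between the ligands. All of these changes were in differences that did not pass.

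Over all probe sets the T3 count of 1222 became 1957 with trend and robust eBayes, 753 with only the 2 groups compared, 773 with the replicate block and 2084 with the covariate (932 higher and 1152 lower, against 888 and 334), 1830 without T3 replicates 1 and 2 (850 higher and 980 lower), and 661 to 1356 with an array left out. The GC-1 count of 622 (403 higher and 219 lower) became 1347 with trend and robust eBayes (653 and 694), 1435 with array weights (706 and 729), 1061 (522 and 539) with only the 2 groups compared or without T3 replicates 1 and 2, 347 with the replicate block, and 274 to 1272 with an array left out, the 1272 (602 and 670) without T3 replicate 3. Between the ligands the count of 0 became 22 with trend and robust eBayes and 0 to 338 with an array left out, the 338 without T3 replicate 3. The cause was not tested. Replicate numbers gave no sign of pairing, though weak correlations cannot exclude it. The 9 same-number correlations of deviations from the group mean ran from -0.26 to 0.08. Those between different numbers ran from -0.30 (GC-1 replicate 1 with T3 replicate 2) to 0.29 (GC-1 replicate 1 with T3 replicate 3). Shared handling across numbers was not tested. In both other groups 0 arrays correlated best with their own number. The replicate block changed no call among the 16 probe sets.

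By the brightest probe set, 3 of the 9 genes passed with T3 in place of 4. In the lists any probe set gave 5 genes in place of 4 with T3, through VDR 204255_s_at (0.27, limma adjusted p = 0.0451), beside 3 other VDR probe sets that did not pass.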
